A study of Rattus norvegicus with 399 samples.

Results

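Heart was profiled in female Sprague-Dawley rats exposed to 800 ppm of 1,4-dichlorobenzene (1,4-DCB), a benzene ring with chlorine atoms at opposite positions, and in control rats at 0 ppm. The comparison used 13 libraries of the 399 in the series: 5 from exposed rats, F601 to F605, and 8 from controls. They were chosen by the labelled compound, tissue and concentration among libraries with no QC flag. The heart libraries of controls F1 and F7 were left out because they carried liver transcripts. Each library is 1 rat, so the 5 and 8 libraries are separate animals.

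The series covered 5 tissues of rats given 1,4-DCB or 1,2-dichlorobenzene (1,2-DCB) at 6 concentrations each, beside their own controls. All rats were 9 weeks old, and small pieces of heart were placed in RNAlater on study day 5. The sources used here give neither the part of the heart, nor the route of exposure, nor the hour at which each rat was killed. Transcripts were read with TempO-Seq, in which paired probes are ligated on a chosen stretch of a transcript and then sequenced, on a panel of 2654 probes for 2603 gene symbols. A value is a count per probe, given below as counts per 1000000 (CPM) of the library's effective total. Levels of different genes are not comparable, since each probe has its own efficiency.

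The heart's pumping cells, the cardiomyocytes, take most of their energy from fatty acids burned in mitochondria, and share the tissue with fibroblasts, endothelial cells and resident macrophages. Cardiomyocytes hold a circadian clock, in which BMAL1 (encoded by Arntl) pairs with CLOCK or NPAS2 to switch on genes such as Dbp and the repressors of the REV-ERB family, which in turn switch off Arntl and Npas2. The heart expresses few of the cytochrome P450 enzymes that handle chlorinated aromatics in liver, and adult cardiomyocytes seldom divide.

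Heart libraries held 11.46 to 13.77 M counts at 800 ppm and 8.724 to 16.5 M counts at 0 ppm, and Myl2, the ventricular myosin light chain, took 33.5 to 35.6% of them at 800 ppm and 29.9 to 36.2% at 0 ppm. All 8 cardiomyocyte probes were above 0 in every library, with a summed level of 360790 to 383830 CPM at 800 ppm and 324170 to 381540 CPM at 0 ppm. Probes for lung epithelium and kidney tubule were at or near 0. Liver transcripts were not even between the groups. Alb (albumin) stood at 2.8 to 12.2 CPM in the exposed rats, but at 266, 138.1, 100.3 and 58.9 CPM in controls F10, F2, F8 and F4, against 3.5 to 5.9 CPM in controls F3, F5, F6 and F9. Of the 21 hepatocyte marker probes tested, 0 were called by edgeR (9 at an unadjusted p below 0.05), 0 by limma voom and 4 by DESeq2, and 16 were below 0 (median log2 fold change -0.745). The summed level of the 38 on the panel was 1859 to 2281 CPM at 800 ppm and 1479 to 3143 CPM at 0 ppm. Most of this sum was Tf and Ttr, with medians of 1169 and 765 CPM at 800 ppm and 1006 and 581 CPM at 0 ppm. It therefore does not show the imbalance seen in Alb, or in Fga, with medians of 5.46 CPM at 800 ppm and 20.2 CPM at 0 ppm. In tissue pieces, fewer cells of a type and less RNA per cell cannot be told apart.

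At 800 ppm, 54 of the 2046 probes tested rose (2.64%) and 62 fell (3.03%) against controls, each for a different gene, at a Benjamini-Hochberg adjusted p below 0.05 in edgeR's quasi-likelihood test; such probes are termed called, and they were 5.67% of all. The largest changes among well-measured genes were in the circadian clock, with Dbp up and Arntl and Npas2 down, followed by a fall of the collagen gene Col5a3. Most changes were small: 71 of the called probes were under 1.5-fold, and 26 were above 2-fold, 9 upward and 17 downward. In 51 of the called probes the exposed rats did not overlap the controls, as in 69 of all 2046 probes (3.37%). The median log2 fold change of all probes was -0.01.

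**Figure D1:**
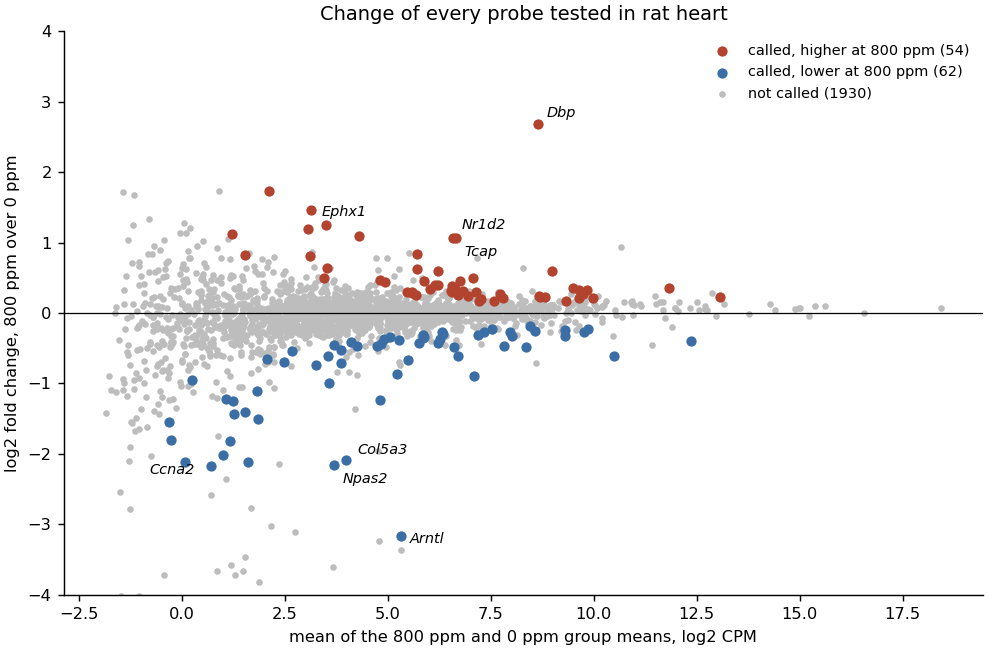
The log2 fold change of 800 ppm over 0 ppm (vertical axis) is plotted against the mean level in log2 CPM (horizontal axis) for the probes tested; red points are the 54 called higher, blue points the 62 called lower and grey points those not called. Dbp lies alone at the top and Arntl is the lowest called probe, 6 uncalled probes lie below the plotted limit of -4, and many called falls have low levels on the left.

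The count rested on the scaling, the exposed rats and the controls. With library totals in place of TMM factors, 20 probes rose and 72 fell, and with limma voom 56 rose and 42 fell. Without rat F601, F603 or F605 there were 70, 68 and 70 calls. Without controls F2, F4, F8 and F10, the kept controls with more Alb, an alternative chosen after seeing the data that leaves 4 controls, 53 probes were called, 23 up and 30 down, and 48 of them were among those called with all 8. This ended the calls of 23 of the 50 genes named by rule, among them Spp1, Nol3, Slc25a30, Pgam1, Acadl, Glul, Loxl1, Col4a2, Hmgb2 and Ccl2.

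At 1, 10, 50, 150 and 400 ppm of 1,4-DCB, with 5 rats each, 0 of the 2046 probes were called by edgeR, and 0 by DESeq2 or by limma voom. At an unadjusted p below 0.05 there were 78 probes at 1 ppm, 76 at 10 ppm, 81 at 50 ppm, 173 at 400 ppm and 378 at 800 ppm, and at 150 ppm they were 6.26% of all probes, against 8.46% at 400 ppm and 3.96% at 50 ppm. The smallest adjusted p at 400 ppm was 0.1103, shared by Snurf and Pgam1, a glycolytic enzyme. Calls in heart therefore stood only at the top concentration of the 6.

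Of the 9 clock probes tested, 2 rose and 2 fell (44.4%, against 5.67% of all probes), with a median log2 fold change of 0.14. The promoters of Arntl and Nr1d2 are shown because they belong to the falling and the rising arm of this loop. They span 250 bases before to 50 after the start in RefSeq, build GRCr8. Capitals mark AGGTCA and GGGTCA, short motifs read by nuclear receptors such as the REV-ERB and ROR families.
Arntl (listed as Bmal1), chr1:176766078-176766377, plus strand: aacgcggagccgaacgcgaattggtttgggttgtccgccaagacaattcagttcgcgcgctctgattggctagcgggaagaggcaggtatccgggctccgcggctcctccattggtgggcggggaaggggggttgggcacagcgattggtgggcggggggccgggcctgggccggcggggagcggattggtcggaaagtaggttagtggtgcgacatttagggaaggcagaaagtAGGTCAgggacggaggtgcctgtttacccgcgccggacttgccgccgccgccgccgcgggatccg
Nr1d2, chr15:9954784-9955083, plus strand: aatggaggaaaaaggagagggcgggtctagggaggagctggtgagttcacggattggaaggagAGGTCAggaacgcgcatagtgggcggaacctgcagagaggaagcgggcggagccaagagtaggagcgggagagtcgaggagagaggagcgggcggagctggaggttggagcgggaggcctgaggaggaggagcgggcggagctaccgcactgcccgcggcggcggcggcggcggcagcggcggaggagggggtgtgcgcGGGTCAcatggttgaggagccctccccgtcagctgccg
Both strands were searched for these, for the E-box, which reads CACGTG and is bound by BMAL1 with its partners, and for the D-box, which reads TTATGTAA and is bound by DBP; no match overlapped another. AGGTCA was found at bases 236 to 241 of the Arntl window and at bases 64 to 69 of the Nr1d2 window, which also held GGGTCA at bases 263 to 268. The windows of Dbp and Npas2 held none of the 4 motifs. Of 33469 rat promoters of this length, 16.2% held AGGTCA and 13.8% held GGGTCA, while 6.42% held the E-box and 0.893% the D-box.

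In the positive arm, Arntl read 7.66, 9.41, 7.11, 8.28 and 7.73 CPM in exposed rats F601 to F605 (the order used throughout), against a lowest value of 52.1, a median of 67.3 and a highest value of 93.9 CPM in the controls. Every exposed rat lay far below every control. The means were 8.04 ± 0.871 CPM at 800 ppm and 71.9 ± 15.3 CPM at 0 ppm (SD over 5 and 8 rats; log2 fold change -3.16 ± 0.22, adjusted p = 2.99e-12), the smallest p of all probes tested. Npas2, a partner of BMAL1, stood at 5.97, 3.76, 5.71, 4.29 and 3.90 CPM in exposed rats, against a lowest value of 16.5, a median of 19.3 and a highest value of 29.8 CPM in controls. The groups did not overlap for Npas2 (log2 fold change -2.16 ± 0.19, adjusted p = 4.56e-11).

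Among the genes that BMAL1 switches on, Dbp, a transcription factor that drives many daily rhythms of metabolism, had 878, 633, 679, 599 and 655 CPM in exposed rats, against a lowest value of 65.5, a median of 87.9 and a highest value of 176 CPM in controls. All 5 exposed rats were above every control, F601 the highest. Its means were 689 ± 109.6 CPM at 800 ppm and 107.8 ± 43.1 CPM at 0 ppm (log2 fold change 2.68 ± 0.24, adjusted p = 1.65e-09). Nr1d2, which encodes the repressor REV-ERB beta, had 133.6, 133.2, 129.7, 109.6 and 138.3 CPM in exposed rats, against a lowest value of 38.2, a median of 63.3 and a highest value of 79.9 CPM in controls. For Nr1d2 the exposed rats and controls were fully apart (log2 fold change 1.07 ± 0.14, adjusted p = 9.27e-07). The other 5 clock probes were not called by edgeR; DESeq2 called 4 of the 9 probes and limma voom 5, the fifth being Bhlhe40 (adjusted p = 0.0471 in limma voom). Nr1d1, encoding REV-ERB alpha, averaged 4.10 ± 0.813 CPM at 800 ppm and 2.60 ± 1.19 CPM at 0 ppm (log2 fold change 0.66 ± 0.31, adjusted p = 0.227), Bhlhe40 66.1 ± 9.31 CPM at 800 ppm and 47.03 ± 14.1 CPM at 0 ppm (log2 fold change 0.49 ± 0.18, adjusted p = 0.107), and Cry1 3.35 ± 1.08 CPM at 800 ppm and 3.21 ± 1.05 CPM at 0 ppm (log2 fold change 0.05 ± 0.24, adjusted p = 0.944). The other two were Csnk1e, a kinase of the clock proteins (log2 fold change 0.14 ± 0.10, adjusted p = 0.476), and the repressor Nfil3 (log2 fold change -0.18 ± 0.32, adjusted p = 0.824). The 4 edgeR calls held under all 24 alternatives tried for Dbp, Nr1d2 and Arntl and all 23 for Npas2. With no hour of collection per rat, its part in these differences was not tested.

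Along the concentrations, Dbp averaged 107.8 ± 43.1, 87.8 ± 21.1, 103.7 ± 32.5, 90.6 ± 30.6, 110.6 ± 40.04, 193 ± 46.2 and 689 ± 109.6 CPM at 0, 1, 10, 50, 150, 400 and 800 ppm. The value at 400 ppm was not called (log2 fold change 0.85 ± 0.24, adjusted p = 0.267). Arntl averaged 71.9 ± 15.3, 77.1 ± 15.6, 73.4 ± 12.5, 80.2 ± 10.3, 78.1 ± 15.9, 54.3 ± 21.8 and 8.04 ± 0.871 CPM in the same order, with a rat as low as 24.2 CPM and a median of 55.03 CPM at 400 ppm (log2 fold change -0.41 ± 0.19, adjusted p = 0.557). Npas2 at 400 ppm averaged 15.8 ± 4.93 CPM and Nr1d2 82.3 ± 10.1 CPM, both short of the threshold (adjusted p = 0.436 and 0.321). Group means up to 150 ppm thus lay within the controls' range, rats at 400 ppm overlapped it and rats at 800 ppm did not.

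**Figure D2:**
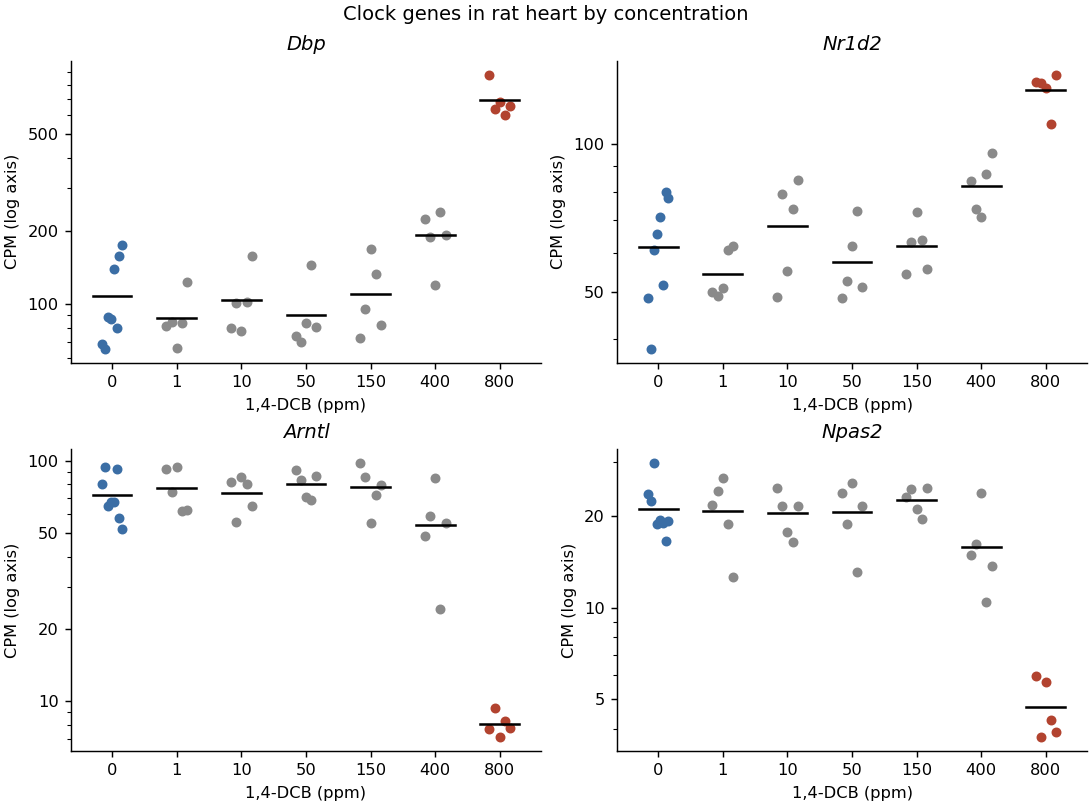
Each point is the level of a clock gene in 1 heart library in CPM (log axis) by 1,4-DCB concentration in ppm, and each line is a group's mean; red points are the 5 rats at 800 ppm and blue points the 8 controls. The 800 ppm rats stand clear of the other groups in all 4 panels, above them for Dbp and Nr1d2 and below them for Arntl and Npas2.

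Of 17 probes for sarcomere and contractile genes, 2 rose and 0 fell (11.8%, against 5.67% of all probes). Their median was 0.13, and 16 had values above 0 on the log2 scale. Tcap encodes telethonin, which caps titin at the Z-disc. It read 153.6, 144.5, 133.2, 128.4 and 118.5 CPM in exposed rats, against a lowest value of 42.6, a median of 63.9 and a highest value of 89.3 CPM in controls. Every exposed rat lay outside the controls' range for Tcap (log2 fold change 1.07 ± 0.18, adjusted p = 1.75e-04). Tpm2, beta-tropomyosin of the thin filament, had 31.01, 71.3, 79.5, 73.3 and 79.2 CPM in exposed rats, against a lowest value of 22.1, a median of 38.6 and a highest value of 51.9 CPM in controls, and F601 alone lay among the controls (log2 fold change 0.83 ± 0.25, adjusted p = 0.0395). The Tpm2 call was lost under 12 of 24 alternatives, among them leaving out any 1 of F602, F603, F604 and F605 or of controls F2, F3, F4 and F9, and without TMM. Acta1, the skeletal alpha-actin, averaged 2109 ± 1129.8 CPM at 800 ppm and 1102 ± 303.8 CPM at 0 ppm but was not called (adjusted p = 0.156), nor were Myh7 (0.13 on the log2 scale), Myh6 (0.01), Actc1 (0.07) and Myl2 (0.07). Tnnt1, slow skeletal troponin T, which was picked after its value was seen, averaged 11.5 ± 7.21 CPM, with 1 rat at 24.4 CPM, against 5.05 ± 1.01 CPM in controls (log2 fold change 1.19 ± 0.23, adjusted p = 9.02e-04).

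Of 10 cardiac stress probes 1 rose (10%, against 5.67% of all probes), Spp1, which encodes osteopontin, a matrix protein of injured heart and of macrophages. It had 39.97, 17.2, 25.3, 32.9 and 17.5 CPM in exposed rats, against a lowest value of 8.26, a median of 12.6 and a highest value of 16.8 CPM in controls, each exposed rat above the highest control, 2 of them barely (log2 fold change 1.09 ± 0.22, adjusted p = 0.00135). Without controls F2, F4, F8 and F10 its adjusted p was 0.0543. Of the 10 probes, 8 were above 0 and 2 below on the log2 scale, with a median of 0.27. Gdf15 averaged 1.12 ± 0.484 CPM at 800 ppm and 1.90 ± 0.849 CPM at 0 ppm and Atf3 15.1 ± 3.46 CPM at 800 ppm and 16.3 ± 6.14 CPM at 0 ppm. Both were uncalled, with means lower at 800 ppm. Atp1b1, which encodes a beta subunit of the sodium-potassium pump, had 4519, 3936, 4047, 4208 and 3525 CPM in exposed rats, all above the controls' range of 2925 to 3476 CPM (log2 fold change 0.36 ± 0.071, adjusted p = 9.71e-04).

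Of 31 NRF2 target probes, 4 rose and 0 fell (12.9%, against 5.67% of all probes), with a median of 0.09. Ephx1, microsomal epoxide hydrolase, which opens reactive epoxides of aromatic compounds, had 13.3, 13.8, 13.6, 11.6 and 11.6 CPM in exposed rats, against a lowest value of 3.60, a median of 4.52 and a highest value of 6.24 CPM in controls. The lowest exposed rat lay well above the highest control (12.8 ± 1.12 CPM at 800 ppm and 4.64 ± 0.925 CPM at 0 ppm; log2 fold change 1.46 ± 0.17, adjusted p = 9.42e-08). From 0 to 400 ppm its means lay between 3.70 ± 0.859 and 4.86 ± 1.13 CPM, so that this rise was seen only at 800 ppm. Gsta4, a glutathione transferase for lipid peroxidation products, averaged 80.9 ± 5.07 CPM at 800 ppm and 61.5 ± 10.1 CPM at 0 ppm (log2 fold change 0.40 ± 0.10, adjusted p = 0.00781), with 5 of 5 rats above the controls.

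The other NRF2 rises were close to the threshold. Cat, catalase, averaged 862 ± 89.6 CPM at 800 ppm and 745 ± 44.9 CPM at 0 ppm (log2 fold change 0.21 ± 0.059, adjusted p = 0.0302). The Cat call was lost under 8 of 24 alternatives, among them without F601, F602, F603 or F605 or control F10. Nfe2l2, which encodes NRF2 itself, averaged 202.2 ± 10.4 CPM at 800 ppm and 179.8 ± 9.33 CPM at 0 ppm (log2 fold change 0.17 ± 0.051, adjusted p = 0.0408) and was lost under 14 of 24, among them without F601, F603, F604 or F605 or control F2, F3, F4, F9 or F10. Both were lost without TMM. Widely used NRF2 markers were not called: Nqo1 averaged 2.71 ± 0.649 CPM at 800 ppm and 2.75 ± 1.11 CPM at 0 ppm, Hmox1 60.3 ± 14.9 CPM at 800 ppm and 51.5 ± 8.38 CPM at 0 ppm, Gclc 115.3 ± 20.6 CPM at 800 ppm and 104.6 ± 9.31 CPM at 0 ppm and Txnrd1 47.1 ± 3.35 CPM at 800 ppm and 47.9 ± 3.43 CPM at 0 ppm. Of 13 probes for targets of the xenobiotic receptors CAR and PXR, 1 rose, again Ephx1 (7.69%, against 5.67% of all probes). Among 9 conjugation enzyme probes, 0 were called by edgeR, DESeq2 or limma voom (2 at an unadjusted p below 0.05 in edgeR).

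Of 29 probes for fatty acid oxidation and PPAR targets, 3 rose and 0 fell (10.3%, against 5.67% of all probes), with a median of 0.11. Pnpla2, the lipase ATGL that opens stored triglyceride, had 71.5, 74.1, 69.6, 64.2 and 59.8 CPM in exposed rats, against a lowest value of 40.001, a median of 48.6 and a highest value of 61.3 CPM in controls. Only F605 overlapped the controls (log2 fold change 0.46 ± 0.090, adjusted p = 9.09e-04). Acadl, long-chain acyl-CoA dehydrogenase, averaged 110.02 ± 7.70 CPM at 800 ppm and 86.7 ± 11.8 CPM at 0 ppm (log2 fold change 0.34 ± 0.088, adjusted p = 0.0134). The Acadl call was lost without F601 and without TMM. Hadhb, a subunit of the trifunctional protein, averaged 935 ± 98.2 CPM at 800 ppm and 779 ± 86.7 CPM at 0 ppm (log2 fold change 0.26 ± 0.082, adjusted p = 0.0470). The Hadhb call was lost under 18 of 24 alternatives, among them without F601, F602, F603 or F605, or control F2, F3, F4, F5, F9 or F10. Cpt1b, which admits fatty acids to mitochondria, was close to 0 on the log2 scale (0.08 ± 0.055), as were Acadm (0.11 ± 0.072) and Lpl (-0.04 ± 0.065). Cyp4a8 was at 0 in all 5 exposed libraries and averaged 0.804 CPM in controls and was uncalled. Its fitted value is no bound, and any value below the list's median leaves that median as it is.

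Other metabolic genes changed by less than 2-fold. Pgam1 read 886, 808, 708, 882 and 759.9 CPM in exposed rats, against a lowest value of 537, a median of 633 and a highest value of 701 CPM in controls. The groups did not overlap for Pgam1 (log2 fold change 0.36 ± 0.077, adjusted p = 0.00260). Along the concentrations it averaged 611 ± 69.3, 617 ± 84.7, 686 ± 75.1, 716 ± 40.6 and 795 ± 39.04 CPM at 1, 10, 50, 150 and 400 ppm, none of them called. At 800 ppm its adjusted p was 0.0599 without controls F2, F4, F8 and F10. Slc25a4, the ADP/ATP carrier of heart mitochondria, averaged 9172 ± 777 CPM at 800 ppm and 7868 ± 417 CPM at 0 ppm (log2 fold change 0.22 ± 0.068, adjusted p = 0.0426). The Slc25a4 call was lost under 14 of 24 alternatives, among them without F601, F602, F603 or F604 or control F2, F3, F4, F6, F9 or F10. Slc25a30, another mitochondrial carrier, rose (log2 fold change 0.46 ± 0.10, adjusted p = 0.00272), though not without controls F2, F4, F8 and F10 (adjusted p = 0.0636). Car14, a membrane carbonic anhydrase, averaged 158 ± 15.7 CPM at 800 ppm and 111.3 ± 11.4 CPM at 0 ppm, 5 of 5 rats above the controls (log2 fold change 0.50 ± 0.082, adjusted p = 5.23e-05).

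Insig1, which holds the sterol sensor of cholesterol synthesis in the endoplasmic reticulum, fell. It had 300.9, 291, 285, 233 and 264 CPM in exposed rats, against a lowest value of 359, a median of 380.4 and a highest value of 425 CPM in controls. For Insig1 the exposed rats and controls were fully apart (log2 fold change -0.48 ± 0.063, adjusted p = 9.27e-07). It was the 1 call among 16 cholesterol synthesis probes (6.25%, against 5.67% of all probes), whose median was 0.01. Lpin1, a phosphatidate phosphatase, averaged 14.7 ± 2.09 CPM at 800 ppm and 19.7 ± 2.29 CPM at 0 ppm (log2 fold change -0.42 ± 0.13, adjusted p = 0.0437). The Lpin1 call was lost under 14 of 23 alternatives, among them without any 1 exposed rat or control F3, F5, F6, F9 or F10. Acy3, an aminoacylase, averaged 15.8 ± 2.92 CPM at 800 ppm and 21.9 ± 2.80 CPM at 0 ppm (log2 fold change -0.47 ± 0.13, adjusted p = 0.0302). The Acy3 call was lost without F603, F604, F605 or control F2. Glul, glutamine synthetase, rose to 126.03 ± 15.5 CPM, against 101.4 ± 7.49 CPM in controls (log2 fold change 0.31 ± 0.082, adjusted p = 0.0164). The Glul call was lost without F601 or F605 and without TMM.

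Of 38 extracellular matrix probes, 0 rose and 6 fell (15.8%, against 5.67% of all probes called and 3.03% falling). Their median was -0.18, and 29 were below 0 on the log2 scale. Col5a3, a chain of type V collagen, which sets the diameter of collagen fibrils, changed most. It read 5.51, 5.97, 4.87, 5.13 and 8.74 CPM in exposed rats, against a lowest value of 16.7, a median of 25.3 and a highest value of 33.8 CPM in controls. No exposed rat came near the lowest control (6.05 ± 1.56 CPM at 800 ppm and 25.7 ± 4.85 CPM at 0 ppm; log2 fold change -2.08 ± 0.17, adjusted p = 4.63e-12). At 400 ppm it averaged 18.5 ± 6.25 CPM, uncalled (log2 fold change -0.48 ± 0.15, adjusted p = 0.302).

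The other matrix falls were smaller. Loxl1, which cross-links elastin, had 87.98, 69.2, 81.8, 72.8 and 97.7 CPM in exposed rats, against a lowest value of 105.6, a median of 123.96 and a highest value of 150.2 CPM in controls. Every exposed rat lay outside the controls' range for Loxl1 (log2 fold change -0.61 ± 0.14, adjusted p = 0.00715). Col6a1 of the microfibrils around cells averaged 556 ± 37.9 CPM at 800 ppm and 698 ± 56.8 CPM at 0 ppm (log2 fold change -0.33 ± 0.069, adjusted p = 0.00209). Col4a2 of basement membranes averaged 229.6 ± 16.9 CPM at 800 ppm and 288 ± 30.6 CPM at 0 ppm (log2 fold change -0.33 ± 0.088, adjusted p = 0.0205). The Col4a2 call was lost without F601, F603, F604 or F605. The last 2 were Lamc1, a laminin chain (-0.27 ± 0.078, adjusted p = 0.0314), and Loxl2 (-0.66 ± 0.20, adjusted p = 0.0408), both at the edge of the threshold. The abundant fibrillar collagens were not called: Col3a1 averaged 1249.8 ± 101.9 CPM at 800 ppm and 1567 ± 235 CPM at 0 ppm (adjusted p = 0.276) and Col1a2 443 ± 20.5 CPM at 800 ppm and 533 ± 64.7 CPM at 0 ppm (adjusted p = 0.0813). Without controls F2, F4, F8 and F10, 2 of the 6 falls counted in the list were left.

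Summed fibroblast and endothelial markers had medians of 1887 and 606.5 CPM at 800 ppm, against 2337 and 716 CPM at 0 ppm. Most of the fibroblast sum was Col3a1 and Col1a2, themselves matrix genes. Their medians were 1179 and 436 CPM at 800 ppm and 1564 and 522 CPM at 0 ppm. Medians of Dcn and Lum were 122.4 and 45.6 CPM at 800 ppm, against 135.1 and 48.0 CPM at 0 ppm, and those of Postn and Mfap5 were higher at 800 ppm. The 8 fibroblast probes, of which 0 were called by edgeR, DESeq2 or limma voom (1 at an unadjusted p below 0.05 in edgeR) and 7 were below 0, summed to 1857 to 2019 CPM at 800 ppm and 1936 to 2870 CPM at 0 ppm. The 5 endothelial probes were all below 0 and summed to 564 to 650.5 CPM at 800 ppm and 632 to 785 CPM at 0 ppm. Of them 1 was called, the adhesion molecule Pecam1, at 72.1 ± 4.67 CPM at 800 ppm and 86.9 ± 7.46 CPM at 0 ppm (log2 fold change -0.27 ± 0.083, adjusted p = 0.0453). What part either cell type had in the matrix falls was not tested. Igfbp3, a growth factor binding protein made by both cell types, had 26.7, 40.3, 22.9, 19.8 and 23.3 CPM in exposed rats, against a lowest value of 37.9, a median of 48.6 and a highest value of 62.1 CPM in controls, with F602 inside the controls (log2 fold change -0.87 ± 0.24, adjusted p = 0.0260). The Igfbp3 call was lost without F601, F603, F604 or F605, with controls F1 and F7 added, or without F2, F4, F8 and F10.

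Of 56 cell cycle and DNA replication probes, 0 rose and 11 fell (19.6%, against 5.67% of all probes called and 3.03% falling); 42 were below 0 and the median was -0.27. DESeq2 also called 11 and limma voom 6. Most of the 11 had levels of a few CPM. Ccna2, cyclin A2 of S phase and mitotic entry, had 0.383, 0.164, 0.655, 1.15 and 0.546 CPM in exposed rats, against a lowest value of 1.19, a median of 2.81 and a highest value of 3.87 CPM in controls. The groups did not overlap for Ccna2 (log2 fold change -2.18 ± 0.43, adjusted p = 9.09e-04). Racgap1, needed for the last step of division, had 1.68, 1.31, 1.03, 1.38 and 1.01 CPM in exposed rats, against a lowest value of 2.56, a median of 3.51 and a highest value of 4.38 CPM in controls. For Racgap1 the exposed rats and controls were fully apart (log2 fold change -1.44 ± 0.30, adjusted p = 0.00154). Cenpf, a kinetochore protein, averaged 0.776 ± 0.341 CPM at 800 ppm and 3.19 ± 1.65 CPM at 0 ppm with 3 of 5 rats below every control (log2 fold change -2.01 ± 0.43, adjusted p = 0.00209), and limma voom gave it an adjusted p of 0.0684.

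The chromatin protein Hmgb2, the best measured of the group, read 345, 338, 347, 359.6 and 344 CPM in exposed rats, against a lowest value of 364, a median of 413 and a highest value of 480.2 CPM in controls. The exposed rats sat in a narrow band under the lowest control (log2 fold change -0.26 ± 0.058, adjusted p = 0.00364). The remaining falls were the proliferation marker Mki67 (-1.41 ± 0.32), the cyclin Ccnb2 (-1.51 ± 0.38), Cdkn3, Cks2, Prc1, Stmn1 and Anln, with adjusted p between 0.00413 and 0.0370. Replication genes were not called: Pcna averaged 85.2 ± 7.68 CPM at 800 ppm and 90.4 ± 8.01 CPM at 0 ppm, Mcm2 20.96 ± 2.87 CPM at 800 ppm and 20.1 ± 2.71 CPM at 0 ppm and Rrm1 61.98 ± 6.31 CPM at 800 ppm and 60.8 ± 4.14 CPM at 0 ppm. Without controls F2, F4, F8 and F10, 4 of the list were called. Among the largest falls of the named genes were 2 histone genes. Hist2h3c2 averaged 34.8 ± 4.85 CPM at 800 ppm and 55.2 ± 8.42 CPM at 0 ppm (log2 fold change -0.66 ± 0.11, adjusted p = 4.24e-05) and Hist1h2bf 80.6 ± 4.90 CPM at 800 ppm and 112.8 ± 11.8 CPM at 0 ppm (log2 fold change -0.49 ± 0.087, adjusted p = 2.27e-04), the second without overlap.

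Markers of blood cells were read beside these falls. The 7 lymphocyte probes summed to 17.4 to 22.2 CPM at 800 ppm and 19.3 to 47.4 CPM at 0 ppm. Of 5 tested, 1 was called by edgeR (20%, against 5.67% of all probes), 1 by DESeq2 and 0 by limma voom. The edgeR call was the T cell kinase Lck, at 7.11 ± 1.73 CPM at 800 ppm and 11.9 ± 2.84 CPM at 0 ppm (log2 fold change -0.74 ± 0.22, adjusted p = 0.0395). Erythroid markers summed to 3534 to 6928 CPM at 800 ppm and 1690 to 13457 CPM at 0 ppm. What part either cell type had in the cell cycle falls was not tested.

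Of 37 probes for cytokines and inflammation, 3 rose, all chemokines, and 0 fell (8.11%, against 5.67% of all probes). The list's median was 0.12, and DESeq2 and limma voom called 5 each. Ccl7, which attracts monocytes, had 14.6, 13.5, 17.3, 19.3 and 14.6 CPM in exposed rats, against a lowest value of 2.75, a median of 6.48 and a highest value of 10.1 CPM in controls. Every exposed rat lay outside the controls' range for Ccl7 (log2 fold change 1.25 ± 0.26, adjusted p = 0.00220). Ccl2, its neighbour in function, averaged 11.05 ± 2.61 CPM at 800 ppm and 6.32 ± 1.19 CPM at 0 ppm (log2 fold change 0.81 ± 0.22, adjusted p = 0.0241). The Ccl2 call was lost without F601, F602 or F605. Ccl11, which attracts eosinophils, averaged 3.17 ± 0.859 CPM at 800 ppm and 1.46 ± 0.659 CPM at 0 ppm (log2 fold change 1.12 ± 0.35, adjusted p = 0.0467). The Ccl11 call was lost under 14 of 23 alternatives, among them without F601, F602, F603 or F604 or control F2, F5, F6, F8, F9 or F10. Whether the panel separates Ccl2, Ccl7 and Ccl11 from one another could not be read from the files or labels. Tnf averaged 3.96 ± 1.62 CPM at 800 ppm and 2.18 ± 0.850 CPM at 0 ppm (adjusted p = 0.0982) and Il1b 4.07 ± 0.983 CPM at 800 ppm and 3.94 ± 1.56 CPM at 0 ppm (adjusted p = 0.956), both uncalled.

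The 9 macrophage probes, of which 0 were called by edgeR (2 at an unadjusted p below 0.05), 0 by limma voom and 1 by DESeq2, and 8 were above 0, summed to 871 to 1081 CPM at 800 ppm and 766 to 1023 CPM at 0 ppm. Of 28 interferon-induced probes 0 were called by edgeR (4 at an unadjusted p below 0.05), DESeq2 or limma voom, with a median of 0.21. Picked after their values were seen, Aif1 of macrophages averaged 14.03 ± 2.61 CPM at 800 ppm and 8.98 ± 1.87 CPM at 0 ppm (log2 fold change 0.65 ± 0.17, adjusted p = 0.0134), the Fc receptor Fcgr2a 7.92 ± 1.03 CPM at 800 ppm and 15.7 ± 2.64 CPM at 0 ppm (log2 fold change -0.99 ± 0.16, adjusted p = 7.57e-05) and the acute phase gene Orm1 6.69 ± 4.21 CPM at 800 ppm and 1.97 ± 1.35 CPM at 0 ppm (log2 fold change 1.73 ± 0.41, adjusted p = 0.00710).

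**Figure D3:**
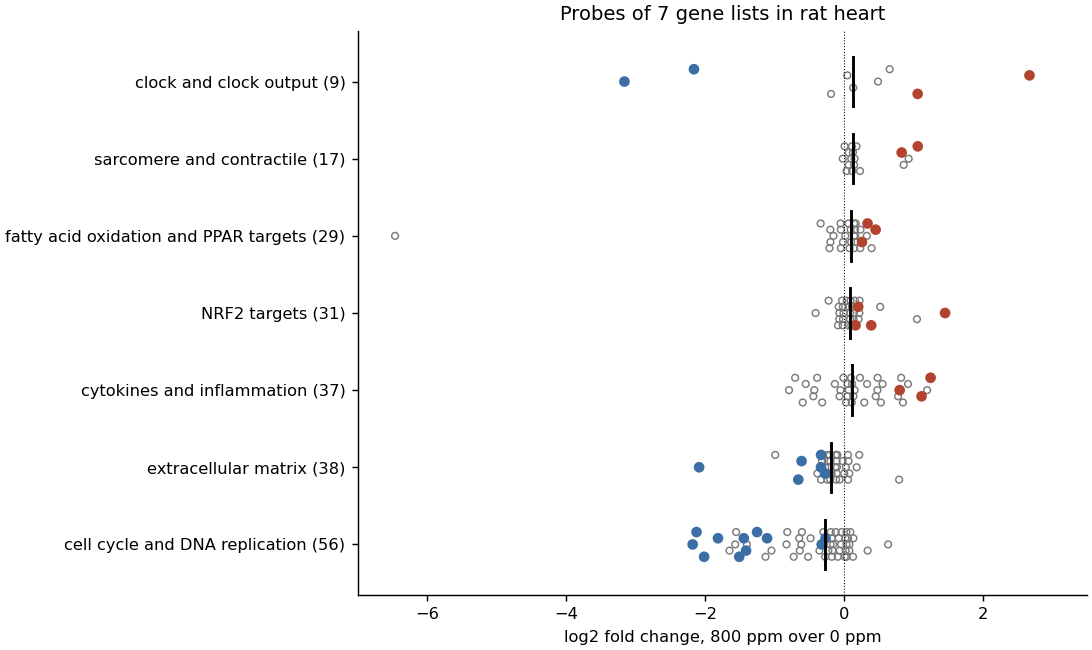
Each circle is the log2 fold change of 800 ppm over 0 ppm for a probe of the named list (number of probes tested in brackets); filled circles were called, red above 0 and blue below, and the vertical bars are list medians. Matrix and cell cycle circles lie mostly left of 0 and all their filled circles are blue; the circle at -6.47 is Cyp4a8, at 0 in all exposed libraries, whose fitted value depends on the prior count.

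Herpud1, part of the disposal of misfolded proteins from the endoplasmic reticulum, had 659, 607, 626, 574 and 594 CPM in exposed rats, against a lowest value of 356, a median of 406 and a highest value of 452 CPM in controls. The groups did not overlap for Herpud1 (log2 fold change 0.60 ± 0.072, adjusted p = 1.06e-07). It was the 1 call among 20 unfolded protein response probes (5%, against 5.67% of all probes), whose median was -0.02. Of 13 heat shock probes 0 were called by edgeR (2 at an unadjusted p below 0.05), DESeq2 or limma voom. Bnip3, a mitophagy receptor that hypoxia induces, had 74.7, 60.7, 52.1, 62.4 and 68.7 CPM in exposed rats, against a lowest value of 35.8, a median of 40.5 and a highest value of 52.8 CPM in controls, with F603 just inside the controls (log2 fold change 0.62 ± 0.094, adjusted p = 1.80e-05).

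Ndrg1, another gene that hypoxia induces, had 1339, 992, 1037, 1355 and 954 CPM in exposed rats, against a lowest value of 1289, a median of 1737 and a highest value of 2095 CPM in controls, and F601 and F604 overlapped the controls (log2 fold change -0.61 ± 0.11, adjusted p = 6.46e-04). Apln, the vasodilator peptide apelin, averaged 9.22 ± 1.13 CPM at 800 ppm and 14.1 ± 1.63 CPM at 0 ppm (log2 fold change -0.61 ± 0.14, adjusted p = 0.00436), 5 of 5 rats below the controls. Of the 17 hypoxia probes, 1 rose and 2 fell (17.6%, against 5.67% of all probes), with a median of 0.04. Vegfa averaged 1122 ± 70.6 CPM at 800 ppm and 1231 ± 120.9 CPM at 0 ppm, uncalled.

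Of 16 glucocorticoid target probes, 1 rose (Glul) and 2 fell (18.8%, against 5.67% of all probes), with a median of -0.30. Cebpd, a transcription factor of stress and inflammation, had 98.1, 83.5, 107.9, 91.9 and 97.2 CPM in exposed rats, against a lowest value of 87.9, a median of 177 and a highest value of 326 CPM in controls. Only F602 was below every control, and the call (log2 fold change -0.89 ± 0.26, adjusted p = 0.0366) was lost under 10 of 24 alternatives, among them without any 1 exposed rat or control F2, F3 or F9. Cdkn1a, the p53-induced cell cycle inhibitor p21, averaged 0.409 ± 0.209 CPM at 800 ppm and 1.21 ± 0.582 CPM at 0 ppm (log2 fold change -1.55 ± 0.46, adjusted p = 0.0395), near the lowest levels on the panel, and was lost under 12 of 23 alternatives, among them without F601, F602, F603 or F605 or control F2, F3, F4, F5, F6 or F9. The glucocorticoid marker Fkbp5 averaged 91.8 ± 38.01 CPM at 800 ppm and 108.2 ± 19.1 CPM at 0 ppm (adjusted p = 0.583).

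Nol3, an apoptosis repressor of muscle, averaged 32.2 ± 3.44 CPM at 800 ppm and 23.4 ± 3.17 CPM at 0 ppm (log2 fold change 0.46 ± 0.11, adjusted p = 0.00860). The Nol3 call was lost without TMM. Mcl1, an anti-apoptotic BCL2 relative, averaged 579.7 ± 23.8 CPM at 800 ppm and 685 ± 66.6 CPM at 0 ppm (log2 fold change -0.24 ± 0.072, adjusted p = 0.0393). The Mcl1 call was lost under 11 of 24 alternatives, among them without any 1 exposed rat or control F2, F3, F5 or F10. Of 27 apoptosis probes, 1 rose (Bnip3) and 1 fell (Mcl1), which is 7.41%, against 5.67% of all probes. The same rule named Skp1 of the ubiquitin ligases (log2 fold change 0.17 ± 0.053, adjusted p = 0.0408) and 1 of the 3 tested probes of the adipocyte regulator Pparg, the lowest in level (0.803 CPM at 800 ppm and 1.54 CPM at 0 ppm; log2 fold change -0.95 ± 0.29, adjusted p = 0.0422), whose calls were lost under 13 of 24 and 14 of 23 alternatives. The other Pparg probes were not called, at 6.76 CPM at 800 ppm and 8.42 CPM at 0 ppm (log2 fold change -0.31 ± 0.17, adjusted p = 0.328) and at 9.97 CPM at 800 ppm and 10.8 CPM at 0 ppm (log2 fold change -0.11 ± 0.17, adjusted p = 0.790). For Skp1 the alternatives included leaving out any 1 exposed rat or control F4, F8, F9 or F10, and for Pparg any 1 of F601, F602, F604 and F605 or of controls F2, F3, F4, F5, F6 and F10. Lrrc17, a secreted leucine-rich repeat protein, rose (log2 fold change 0.59 ± 0.12, adjusted p = 9.09e-04), and LOC102549061 fell to 16.7, 15.8, 16.2, 14.3 and 19.8 CPM, against a lowest value of 25.6, a median of 42.7 and a highest value of 51.5 CPM in controls (log2 fold change -1.24 ± 0.19, adjusted p = 2.96e-05).

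The remaining lists held at most 2 calls each. Their shares are set against 5.67% of all probes called. Calcium handling and ion channels had 2 rises of 5 probes (40%, with a median log2 fold change of 0.04), Atp1b1 among them. Glycolysis had 1 rise of 15 probes (Pgam1, 6.67%), mitochondrial respiration 1 of 11 (Slc25a4, 9.09%) and the proteasome and ubiquitin list 1 of 11 (Skp1, 9.09%). The p53 and DNA damage list had 1 rise and 1 fall of 18 (Ephx1 and Cdkn1a, 11.1%). In each of 3 other lists 1 fell: fatty acid and triglyceride synthesis (13 probes, Lpin1, 7.69%), insulin and growth factor signalling (21, Igfbp3, 4.76%) and oestrogen and nuclear receptors (17, 1 Pparg probe, 5.88%). Of 22 immediate early and 10 heme and iron probes, 0 were called by edgeR, DESeq2 or limma voom (2 and 1 at an unadjusted p below 0.05 in edgeR).

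**Figure D4:**
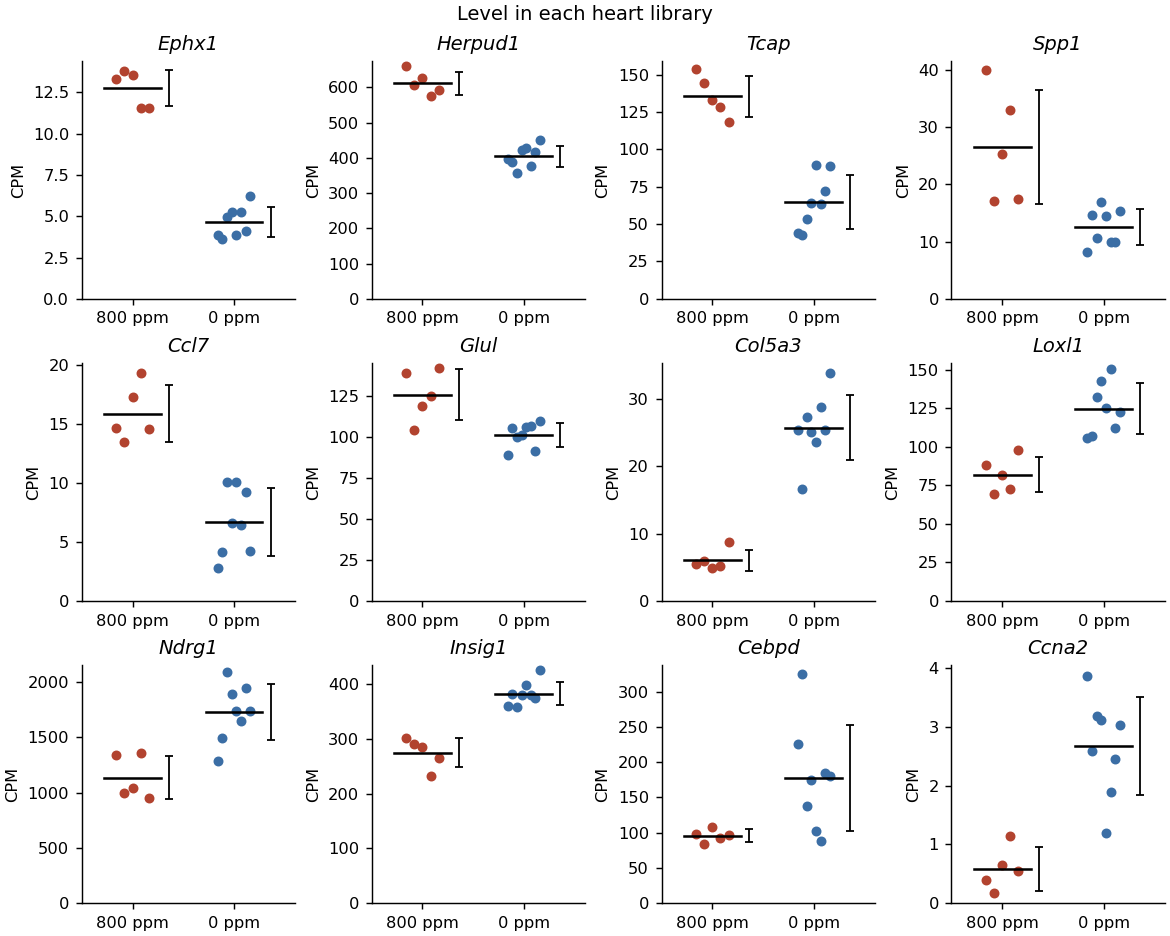
Levels of 12 genes in CPM are shown for each heart library, with the 5 rats at 800 ppm (red) left of the 8 controls at 0 ppm (blue); lines are means and bars are ± SD. Ephx1, Herpud1, Tcap, Ccl7, Col5a3, Loxl1 and Insig1 show no overlap between the groups, nor do Spp1 and Ccna2, by narrow margins. Cebpd shows controls spread from 87.9 to 326 CPM.

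The same rats gave liver, kidney and lung, so the change in heart was set against theirs in a joint fit of 5 tissues. The change in heart differed from that in liver for 317 of 2046 probes (15.5%), from that in kidney for 18 (0.880%) and from that in lung for 8 (0.391%). Among the probes called in heart, 41, 6 and 2 differed in this way. Liver and kidney had 10 controls and lung 8. Control rats F1 and F7 enter with those tissues only.

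Dbp, Nr1d2, Arntl and Npas2 had changes of the same sign in all 4 tissues that differed in size. The fall of Arntl in heart (-3.16 ± 0.22) was larger than in liver (-0.65 ± 0.12), with a difference of -2.39 ± 0.27, adjusted p = 1.63e-13, while kidney (-3.47 ± 0.20) and lung (-2.92 ± 0.19) did not differ from heart at the threshold (differences of 0.31 ± 0.27 and -0.26 ± 0.27). Npas2 also fell more in heart than in liver (difference -1.02 ± 0.25, adjusted p = 9.96e-04). Against kidney the Npas2 difference was 0.83 ± 0.25, adjusted p = 0.0691, and with rat as a replicate block, in the paired fit, it passed (0.84 ± 0.23, adjusted p = 0.0379). Dbp rose more in heart than in liver (difference 1.52 ± 0.28, adjusted p = 7.61e-06) and less than in lung (difference -1.40 ± 0.28, adjusted p = 0.00294). Nr1d2 rose less in heart than in lung (difference -1.09 ± 0.28, adjusted p = 0.0412).

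Cell cycle genes parted most from liver. Of the 56 probes, 37 had a lower change in heart than in liver and 0 a higher one, against 15.5% of all probes called in either direction, with a median difference of -1.88. Ccna2 fell in heart (-2.18 ± 0.43) and rose in liver (2.88 ± 0.42, adjusted p = 8.85e-07), a difference of -4.93 ± 0.54, adjusted p = 6.86e-14. Racgap1 showed a difference of -4.04 ± 0.45, adjusted p = 1.55e-13 and Cenpf of -4.61 ± 0.54, adjusted p = 2.27e-12. Hmgb2 differed by -1.17 ± 0.19, adjusted p = 2.73e-07, and the histones Hist2h3c2 and Hist1h2bf by -1.67 ± 0.17 and -1.05 ± 0.18. In kidney and lung, Ccna2 had changes of -0.70 ± 0.32 and -0.77 ± 0.17, and their differences from heart did not pass.

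Among other genes, the rise of Ephx1 in heart (1.46 ± 0.17) was smaller than in liver (2.48 ± 0.18, with a difference of -0.89 ± 0.31, adjusted p = 0.0379). Ephx1 also rose in kidney (0.41 ± 0.10, adjusted p = 0.00896) and lung (0.49 ± 0.15, adjusted p = 0.0421), each in its own tissue's fit, but was not called in ovary (adjusted p = 0.906). Of the 31 NRF2 target probes, 12 had a lower change in heart than in liver and 0 a higher one, and of the 37 cytokine probes 8 had a higher change and 0 a lower one, against 317 of all 2046 probes called in either direction, of which 175 were higher in heart and the others lower. Glul rose in heart and fell in liver (-1.26 ± 0.13, adjusted p = 3.91e-10; difference 1.70 ± 0.19, adjusted p = 1.57e-13), and Atp1b1 differed by 0.80 ± 0.17, adjusted p = 1.51e-04. Insig1 fell in heart and rose in liver (0.72 ± 0.24) and kidney (0.72 ± 0.11), with differences of -1.07 ± 0.32, adjusted p = 0.0108, and -1.19 ± 0.32, adjusted p = 0.0337. Ndrg1 fell less in heart than in kidney (-1.45 ± 0.18; difference 0.85 ± 0.20, adjusted p = 0.00709), and Acy3 fell in heart and rose in kidney (0.56 ± 0.12; difference -1.03 ± 0.22, adjusted p = 0.00209).

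For 4 genes that rose in heart the change was above that in liver, where none of them was called (-0.45 ± 0.41, adjusted p = 0.419 for Spp1, -0.59 ± 0.45, adjusted p = 0.331 for Lrrc17, -0.06 ± 0.10, adjusted p = 0.672 for Bnip3 and 0.02 ± 0.15, adjusted p = 0.947 for Herpud1). Differences from liver were 1.66 ± 0.54 for Spp1, 1.29 ± 0.40 for Lrrc17, 0.82 ± 0.22 for Bnip3 and 0.71 ± 0.18 for Herpud1, all past the threshold. Spp1 and Lrrc17 were low in liver, at 0.893 and 0.159 CPM at 800 ppm and 1.22 and 0.245 CPM at 0 ppm. The liver side of their differences thus rests on low levels. LOC102549061 fell in heart but rose in liver (difference -2.00 ± 0.26). Herpud1 also rose in kidney (0.55 ± 0.12, adjusted p = 0.00373) and ovary (0.58 ± 0.13, adjusted p = 0.00331), each in its own tissue's fit. It was not called in lung (0.17 ± 0.10, adjusted p = 0.349). Ccl11 differed from kidney by 4.01 ± 1.10, adjusted p = 0.0432, a call that the replicate block ended (3.35 ± 1.12, adjusted p = 0.152). Its counts in kidney were too low for it to be tested in that tissue's own fit, so the size of this difference is poorly bounded. In lung's own fit Ccl7 rose too (1.42 ± 0.28, adjusted p = 0.00197). Ccl2 (0.91 ± 0.30, adjusted p = 0.0656) and Ccl11 (1.04 ± 0.37, adjusted p = 0.0982) were not called there. For Col5a3 the difference from liver (-1.70 ± 1.21, adjusted p = 0.380) did not pass, nor did those from kidney (-0.60 ± 0.61, adjusted p = 0.809) and lung (-1.54 ± 0.49, adjusted p = 0.139). Its levels were too low for a test in liver's own fit. They were 0.201 and 0.614 CPM in kidney and 1.54 and 2.27 CPM in lung, at 800 and 0 ppm. Such low levels leave these tests little power. In ovary's own fit Col5a3 fell too, with means of 5.45 CPM at 800 ppm and 10.8 CPM at 0 ppm (-1.01 ± 0.31, adjusted p = 0.0362). Its fall was thus not shown to be particular to heart.

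**Figure D5:**
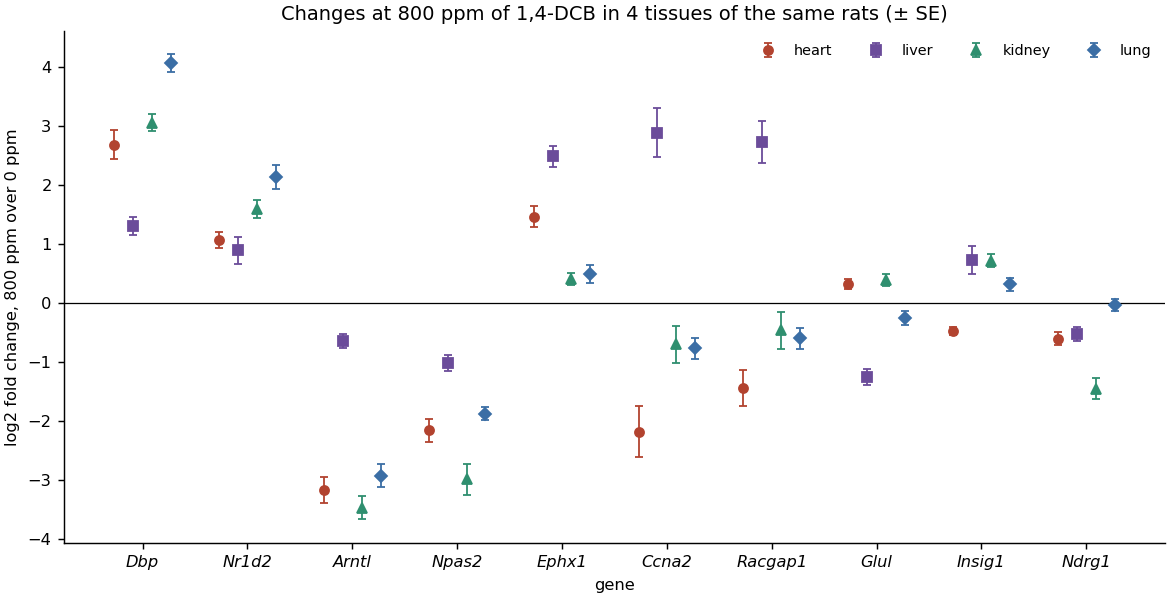
The log2 fold change of 800 ppm over 0 ppm (vertical axis, ± SE of the fit) is shown for 10 genes in heart, liver, kidney and lung of the same rats, each from its own tissue's fit with 5 exposed rats. Heart and liver stand on opposite sides of 0 for Ccna2, Racgap1, Glul and Insig1 and on the same side for the clock genes and Ephx1.

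Rats given 1,2-DCB, whose chlorine atoms are neighbours on the ring, had a top concentration of 500 ppm, so values are set side by side without a comparison. Arntl averaged 7.83 ± 3.35 CPM at 500 ppm and 57.9 ± 28.4 CPM in its own controls (log2 fold change -2.88 ± 0.44). Dbp averaged 637 ± 154.5 CPM at 500 ppm and 190.3 ± 93.8 CPM in its own controls (log2 fold change 1.74 ± 0.37). For Col5a3 the means were 3.87 ± 1.33 CPM at 500 ppm and 25.2 ± 3.56 CPM in its own controls (log2 fold change -2.70 ± 0.20). Ephx1 had 16.2 ± 1.52 CPM at 500 ppm and 5.20 ± 1.38 CPM in its own controls (log2 fold change 1.64 ± 0.20). Ccna2 stood at 0.384 ± 0.164 CPM at 500 ppm and 2.99 ± 1.25 CPM in its own controls (log2 fold change -2.93 ± 0.39). Each mean is of 5 exposed and 10 control rats. Ndrg1 had a log2 fold change of 0.01 and Insig1 of 0.16 at 500 ppm of 1,2-DCB.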

How the data were processed

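The authors deposited raw counts of reads per probe and library, adjusted for attenuation, from TempO-Seq (Rat S1500+ v1.2, per the labels). Attenuation in this assay lowers the reads of abundant transcripts on purpose. Across all 399 libraries of the series, 104 probes held only multiples of a step above 1, and 16 probes were at 0 throughout. In heart, the 104 probes held 44% of the counts. Bowtie 1.3.1 is named in the submitters' processing notes. The sources used here do not give its settings, the probe reference, the build, or whether probes separate close paralogs. PCR reads carry no molecular identifiers, so depth bounds counting error only. No heart columns were identical.

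Counts of 38 heart libraries of 1,4-DCB (7 groups, without controls F1 and F7) were fitted together in R 4.3.3 with edgeR 4.0.16 (filterByExpr, TMM, robust quasi-likelihood test, Benjamini-Hochberg adjustment over 2046 probes, threshold 0.05). The SE is the log2 fold change divided by the root of F. Tissue differences are interaction contrasts of a joint fit over heart, kidney, liver, lung and ovary. Same-numbered libraries come from the same rat, per the labels; same-rat deviations from group means correlated with a median of 0.207 (heart and liver), 0.29 (kidney) and 0.467 (lung). DESeq2 1.42.0 and limma 3.58.1 (voom) were alternatives, and the script was tested on simulated data.

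Named genes are the 12 largest rises and falls among called probes with a group mean of at least 20 CPM, plus up to 4 called members of each of 27 lists with the smallest p. Others are list members, or were named after their values were seen. The members, lists and tests were chosen with earlier results of these data known. Of the named genes, 1 is not reported here.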

Additional observations from a re-analysis of the deposited data

Results flagged for a closer look

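Of the 100 groups of rats behind the 50 named genes, 6 held a rat set apart from the rest of its group, close to the 1 in 20 that chance gives. At 800 ppm, Dbp stood at 878 CPM in F601 (next 679 CPM), Tpm2 at 31 CPM in F601 (next 71.3 CPM), Col5a3 at 8.74 CPM in F605 (next 5.97 CPM) and Col4a2 at 259 CPM in F602 (next 225 CPM). Among controls, Bnip3 stood at 52.8 CPM in F10 (next 42.1 CPM) and Mcl1 at 825 CPM in F5 (next 714 CPM).

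The change at 800 ppm differed between heart and another tissue, by the test of the difference, for 317 probes against liver, 18 against kidney and 8 against lung. Among the 50 named genes, the log2 differences of heart minus liver that passed were -4.93 for Ccna2, -4.61 for Cenpf, -4.04 for Racgap1, -2.39 for Arntl, -2.00 for LOC102549061, -1.67 for Hist2h3c2, -1.17 for Hmgb2, -1.07 for Insig1, -1.05 for Hist1h2bf, -1.02 for Npas2 and -0.89 for Ephx1 on the lower side. On the higher side they were 1.70 for Glul, 1.66 for Spp1, 1.52 for Dbp, 1.29 for Lrrc17, 0.82 for Bnip3, 0.80 for Atp1b1 and 0.71 for Herpud1. Levels of Spp1 and Lrrc17 in liver were low. For heart minus kidney they were 4.01 for Ccl11, 0.85 for Ndrg1, -1.03 for Acy3 and -1.19 for Insig1, and for heart minus lung -1.09 for Nr1d2 and -1.40 for Dbp. Counts of Ccl11 in kidney were too low for a test in that tissue's own fit.

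In the heart libraries of controls F1 and F7, which entered no comparison in heart, Alb stood at 909 and 767 CPM, against at most 12.2 CPM at 800 ppm.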

How the results depend on the processing

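Of the 50 named genes, 24 stayed past the threshold under every alternative run for them (at most 24 each), 26 fell below it under at least 1, and 0 changed sign. At 800 ppm the count of calls stayed within 1.5 times under DESeq2, its size factors, voom (98), a 20 CPM filter (94), no filter (96), controls F1 and F7 added, 800 and 0 ppm alone, and no TMM (92). Without TMM the median log2 fold change of all probes was -0.0647 and rises were 21.7% of calls, against 46.6% with it (20 rises in place of 54). Leaving out 1 rat gave as few as 68 calls, 30 to 57 rises and 36 to 69 falls; rises were 30, 35, 32 and 32 without F601, F602, F603 and F605, and falls 40, 36 and 38 without F601, F603 and F605. Without controls F2, F4, F8 and F10 (chosen after seeing the data; fewer samples) there were 53 calls, 23 rises and 30 falls, and 4 cell cycle, 2 matrix, 2 NRF2, 1 fatty acid oxidation and 1 sarcomere calls. DESeq2 called 5 cytokine probes in place of 3.

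The fit with rat as a replicate block (paired tissues) gave 346 differences from liver, 23 from kidney and 10 from lung; beyond Npas2 and Ccl11 against kidney it changed no call of a named gene. With controls F1 and F7, kidney gave 36 and lung 22, and in fits of 2 tissues only 34 and 42. Leaving out 1 exposed rat gave 12 to 21 for kidney and 4 to 12 for lung; lung gave 4, 5 and 4 without F601, F603 and F605. The cause of these shifts was not tested. Of the calls, 33 had both means under 20 CPM, and those at a few CPM rest on the fewest counts. The part of depth in them was not tested.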
